A study of Orbicella faveolata with 56 samples.

Results

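The experiment described here is the response to 32 °C of corals of offshore origin that had been placed at an offshore transplant site. The coral is Orbicella faveolata, a massive reef builder of the Caribbean, and the title of the study asks about differences in heat tolerance among corals moved between reef sites of the Florida Keys. Of the 56 samples of the series, 12 belong to this experiment: a fragment at 32 °C and a fragment at 30 °C of each of the 6 corals C1 to C6. They were chosen by their labels alone (origin offshore, transplant site offshore), and each coral carried a genotype label of its own, O1 to O6. The 32 °C fragments were brought to their temperature over 7 days after an acclimation period and held there for 6 days before sampling. The 30 °C fragments went through the same schedule as the control. All 12 fragments share the collection site and the transplant site, so neither can be told apart from the offshore origin within them. The labels give the tissue as coral tissue, with no cell type, so fewer cells of a type and less RNA per cell cannot be told apart in any of the differences below.

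A reef coral is an animal that keeps single-celled dinoflagellate algae inside the cells of its gut lining. The algae photosynthesise and pass sugars to the animal, and the partnership breaks down under sustained warmth, when corals lose algae or pigment and bleach. Animal cells meet heat with chaperones that refold damaged proteins, with enzymes that remove reactive oxygen, and with changes in calcification, metabolism and immunity. Durusdinium trenchii is one of the dinoflagellates that Caribbean corals house, and it is known for its tolerance of warm water. RNA from coral tissue therefore holds both animal and algal transcripts. Here they are split into a table taken as the host and a table named for D. trenchii. Both tables list transcripts of an assembly by identifier only. The files pair no identifier with a gene name, so genes are given by identifier, without a role, and no functional list could be formed.

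Host totals lay between 4697239 and 6137506 estimated counts per library at 32 °C and between 3781534 and 5740475 at 30 °C, and 48998 to 54210 of the 87440 host rows held a count. The 30 °C library of C3 had the lowest total and stood apart from the rest. Its mean correlation with the other 54 labelled libraries was 0.834, below the limit of 0.837 set 3 median absolute deviations under the median. Among the 12 libraries no other fell below that limit. Calls are therefore given with and without C3 below. Library numbers in the labels were 3 and 5 for C2 and C1 at 30 °C and 20 or more for the other 10 libraries. Numbers under 17 thus occur at 30 °C only, and a within-number value is given below for the 4 pairs from C3 to C6.

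Coral identity, not temperature, accounted for most of the differences between the 12 host profiles. Over the 25516 host rows that passed the low-count filter, 74.5% of the variation in log2 CPM, counts scaled to the size of the library, lay between the 6 corals (5 degrees of freedom), 5.20% lay between the temperatures (1 degree of freedom), and 20.3% was left over (5 degrees of freedom). In 12 of 12 cases the library most like a given one was the other fragment of its coral. The 32 and 30 °C libraries of a coral correlated with r between 0.890 in C3 and 0.964 in C5, with a median of 0.935 across rows, which are not independent replicates. Libraries of different corals had a median r of 0.859 at the same temperature and of 0.855 at different temperatures. The typical spread of a row between libraries (the biological coefficient of variation of edgeR) was 0.285 with the coral as a block and 0.465 without it.

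In the paired test, 4 host rows fell at 32 °C and 0 rose. The test was edgeR's quasi-likelihood F test with coral as a block and Benjamini-Hochberg adjustment over all 25516 rows. The rows that fell were 0.0157% of those tested and the rows that rose were 0%. At an unadjusted p under 0.05 there were 2049 rows, or 8.03%, of which 1002 were higher and 1047 lower. The smallest adjusted p of any row higher at 32 °C was 0.202 in edgeR. DESeq2's Wald test with the same terms called 154 rows, 50 higher and 104 lower, or 0.604% of the 25516 rows. DESeq2 gave no adjusted p for 8905 of the 25516, so its adjustment covered fewer rows than that of edgeR. All 4 edgeR rows were among these 154. Each of the 4 fell over 2-fold on average and was lower at 32 °C in 6 of 6 corals.

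OFAVBQ_DN217826_c12_g1 was at 80.2, 62.0, 62.8, 56.9, 74.0 and 58.1 CPM in the 32 °C fragments of C1 to C6, and at 247, 141, 157, 129, 165 and 129 CPM in their 30 °C fragments. Every 32 °C fragment lay below every 30 °C fragment, and C1 had the highest level at both temperatures. The means were 65.7 ± 9.36 CPM at 32 °C and 161 ± 44.5 CPM at 30 °C (SD, n = 6 each). The row fell 2.41-fold (log2 change -1.27 ± 0.105 SE, edgeR adjusted p = 0.0163), by 2.21-fold in C6 to 3.07-fold in C1.

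OFAVBQ_DN203101_c1_g1 changed most of the 4. Its level was 10.9, 9.88, 11.9, 6.93, 9.51 and 10.3 CPM at 32 °C in C1 to C6, against 63.5, 24.96, 44.9, 31.3, 34.2 and 63.7 CPM at 30 °C. The 6 heated fragments sat close together, while those at 30 °C spread widely, and the groups did not overlap. The means were 9.90 ± 1.68 CPM at 32 °C and 43.8 ± 16.7 CPM at 30 °C (SD, n = 6 each), a 4.22-fold fall (log2 change -2.08 ± 0.190 SE, edgeR adjusted p = 0.0163). The fall was smallest in C2, 2.47-fold, and largest in C6, 6.00-fold. The assembly holds another tested row of the same component, OFAVBQ_DN203101_c1_g4. Its log2 change was -1.04 ± 0.446 SE at a mean of 11.6 CPM and did not pass the threshold (edgeR adjusted p = 0.612). Rows of a component can share sequence, so how the counting divided reads between the pair is uncertain.

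The other 2 rows that passed are named because the count is small, and were chosen after their values were seen. OFAVBQ_DN203011_c0_g1 was at 68.7, 48.1, 69.2, 78.2, 91.2 and 39.7 CPM at 32 °C in C1 to C6, against 152, 123, 142, 167, 174 and 110 CPM at 30 °C. The groups did not overlap, and the order of the corals was nearly the same at both temperatures, with C5 highest and C6 lowest. The means were 65.9 ± 19.03 CPM at 32 °C and 145 ± 25.1 CPM at 30 °C (SD, n = 6 each), a 2.25-fold fall (log2 change -1.17 ± 0.107 SE, edgeR adjusted p = 0.0163), from 1.91-fold in C5 to 2.75-fold in C6. OFAVBQ_DN207486_c7_g1 was at 51.3, 26.2, 15.96, 44.6, 4.55 and 54.7 CPM at 32 °C in C1 to C6, and at 109, 59.3, 38.7, 87.0, 7.21 and 110 CPM at 30 °C. Here the groups overlapped widely, the corals differed more than the temperatures did, and C5 was lowest at both. The means were 32.9 ± 20.4 CPM at 32 °C and 68.5 ± 40.99 CPM at 30 °C (SD, n = 6 each). The row fell in each coral, by 1.54-fold in C5 to 2.39-fold in C3, and 2.06-fold overall (log2 change -1.05 ± 0.113 SE, edgeR adjusted p = 0.0481).

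Among all rows tested, 68 (0.266%) had every 32 °C fragment below every 30 °C fragment, and 40 (0.157%) had every 32 °C fragment above. The first 3 of the 4 rows that fell are among the 68. Each of the 4 kept its direction under all 12 distinct alternative fits tried, but none passed under all of them. Leaving out the library that stands apart and leaving out C3 are the same fit. Without C3 the first 3 passed (edgeR adjusted p = 0.0423 each) and OFAVBQ_DN207486_c7_g1 did not (edgeR adjusted p = 0.0834). Without C1, C4, C5 or C6 the count was 0 (edgeR; 2626, 1474, 1956 and 1473 rows at an unadjusted p under 0.05), and without C2 only OFAVBQ_DN203101_c1_g1 passed (edgeR adjusted p = 0.0437). Within the 4 pairs of library number 17 or more, 0 rows passed in edgeR (1641 at an unadjusted p under 0.05), and the log2 changes of the 4 rows were -1.20, -2.14, -1.13 and -0.99 in the order above. Over these alternatives the highest adjusted p of these rows was 0.251 for the first and the second, 0.393 for the third and 0.9998 for the fourth, and the lowest was under 0.05 for each.

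**Figure D1:**
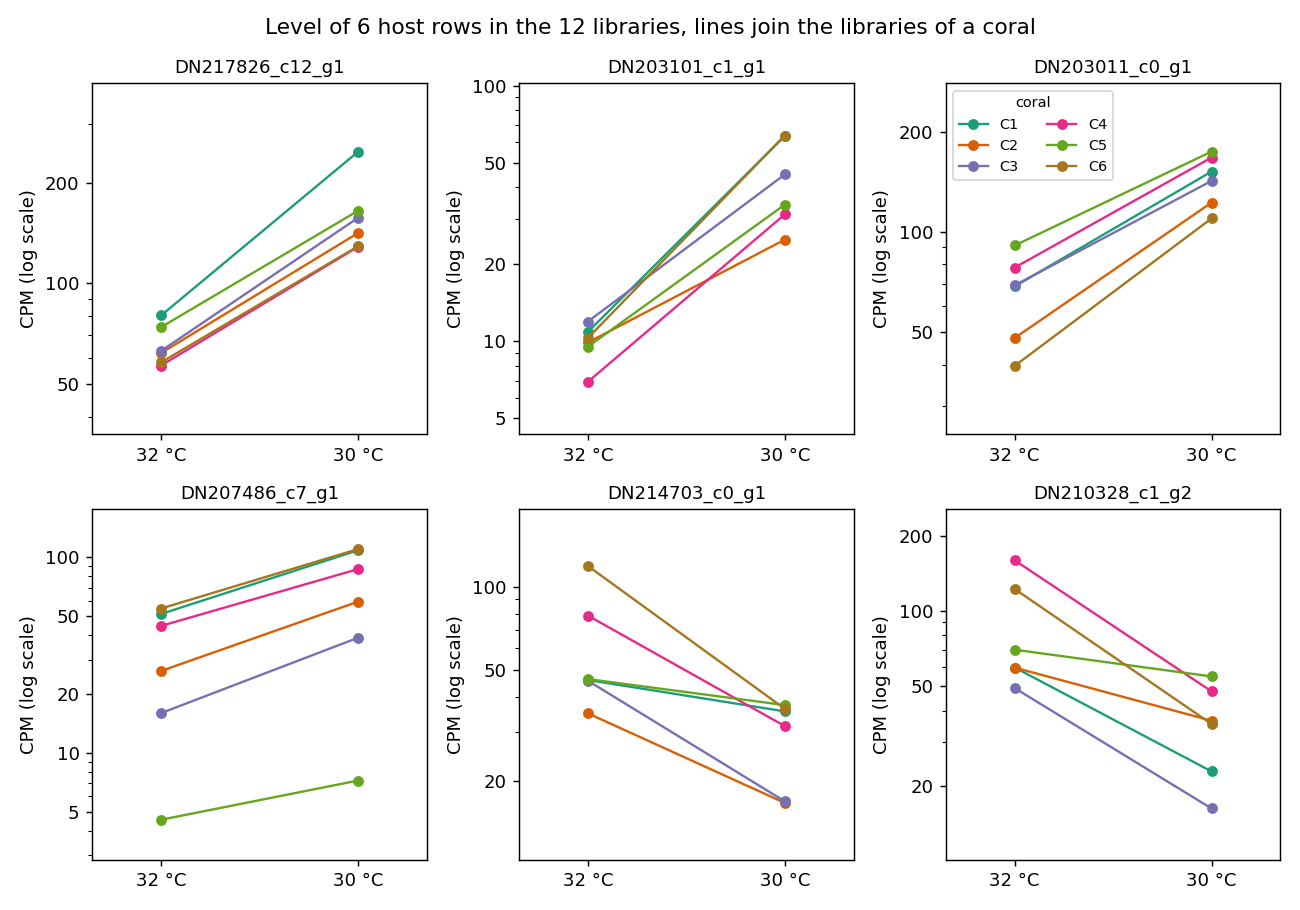
Level of 6 host rows in CPM (log axis) at 32 °C (left of each panel) and 30 °C (right), with a line for each of the corals C1 to C6. The first 4 panels show the rows that passed, which fell in 6 of 6 corals. The last 2 show rows that did not pass in the 12 libraries alone, chosen among rows higher at 32 °C in 6 of 6 corals.

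No row higher at 32 °C passed in the 12 libraries alone, but 11 did (0.0313% of 35128) when the spread of each row was taken from all 27 coral pairs of the study, beside 20 that were lower (0.0569%). That fit has 23 residual degrees of freedom, against 5, and assumes that rows vary alike in all 4 combinations of origin and site. It called 2 of the 4 rows above, OFAVBQ_DN217826_c12_g1 and OFAVBQ_DN203101_c1_g1 (edgeR adjusted p = 0.00388 for both). For OFAVBQ_DN203011_c0_g1 and OFAVBQ_DN207486_c7_g1 the edgeR adjusted p was 0.113 and 0.242. Of its 31 calls, 29 were among the rows tested in the 12 libraries, and these 29 all had the same direction in 6 of 6 corals. The direction of the remaining calls was not checked. The 2 higher rows with the smallest p in that fit are described next, and were chosen after their values were seen. The choice was limited to called rows with a mean log2 CPM of at least 1 that were higher in 6 of 6 corals. Their agreement across the corals was thus fixed by the choice.

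OFAVBQ_DN214703_c0_g1 was at 46.2, 35.02, 45.9, 78.6, 46.5 and 119 CPM at 32 °C in C1 to C6, and at 35.6, 16.7, 16.9, 31.5, 37.5 and 36.4 CPM at 30 °C. It was higher at 32 °C in each coral, as the choice required, with C6 and C4 highest, and the groups overlapped. The means were 61.8 ± 31.5 CPM at 32 °C and 29.1 ± 9.74 CPM at 30 °C (SD, n = 6 each). The log2 change was 1.04 ± 0.205 SE, or 2.05-fold, with 1.24-fold in C5 and 3.24-fold in C6. Its edgeR adjusted p was 0.336 in the 12 libraries and 0.00823 with the spread of all pairs, and over the 12 distinct alternatives, DESeq2 included, it lay between 7.41e-06 and 0.849.

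OFAVBQ_DN210328_c1_g2 was at 59.5, 59.4, 49.2, 159, 70.1 and 122 CPM at 32 °C in C1 to C6, against 22.9, 36.5, 16.3, 47.8, 54.8 and 35.4 CPM at 30 °C. C4 and C6 again had the highest heated fragments, and the 30 °C fragment of C5 lay above the 32 °C fragment of C3, so the groups overlapped. The means were 86.6 ± 44.05 CPM at 32 °C and 35.6 ± 14.5 CPM at 30 °C (SD, n = 6 each), and the log2 change was 1.26 ± 0.210 SE, or 2.39-fold. The ratio ran from 1.28-fold in C5 to 3.43-fold in C6. The edgeR adjusted p was 0.250 in the 12 libraries and 0.0147 with the spread of all pairs, with 2.32e-09 to 0.739 over the same alternatives.

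Most rows that moved one way in every coral moved less than 2-fold. In 6 of 6 corals 759 rows were higher at 32 °C (2.97% of 25516) and 639 were lower (2.5%), with median differences of 1.40-fold and 1.38-fold. Over all rows tested, the median was 1.13-fold for those with a higher mean at 32 °C and 1.12-fold for those with a lower mean. Of the rows with 6 of 6, 66 of the higher and 72 of the lower differed over 2-fold, and 517 and 450 had an unadjusted p under 0.05 (edgeR). The largest class, 7058 rows or 27.7%, was higher in 3 corals. With RLE size factors in place of TMM 725 rows were higher and 662 lower in 6 of 6. In the 5 corals without C3, 1370 rows were higher in each and 1164 lower, counts that need agreement of fewer corals.

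The balance of directions differed with the level of the rows. In the quartile of lowest CPM (1.42 to 4.64 CPM, averaged over the 12 libraries), 170 rows were higher at 32 °C in 6 of 6 corals and 88 lower. In the highest quartile (33.2 to 16594 CPM) 208 were higher and 254 lower. With RLE size factors the counts were 149 and 102 in the lowest quartile and 205 and 253 in the highest, so the excess of higher rows among low levels was smaller. Median absolute log2 changes were 0.24 in the lowest quartile and 0.13 in the highest. Of the 4 rows that fell, 3 were in the highest quartile and 1 in the third. CPM is not per length, so the quartiles order rows by counts.

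The 6 corals differed in how much their profiles moved. In C3, whose 30 °C library stands apart, 20.1% of rows differed over 2-fold between its fragments. The share was 13.3% in C1, 13.4% in C2, 11.3% in C6, 7.16% in C4 and 6.36% in C5. Many of these rows had low counts: their median log2 CPM was 2.26 (C5) to 3.15 (C3), against 3.58 for all rows tested. Among the rows of the highest quartile the share was 14.9% in C3. There it was 6.99% in C1, 6.87% in C2, 6.87% in C6, 3.46% in C4 and 1.85% in C5. Directions differed too: C1 had 2389 rows over 2-fold higher at 32 °C and 1002 over 2-fold lower, whereas C2 had 1097 higher and 2311 lower and C6 had 1044 higher and 1841 lower. These values rest on 1 library per temperature and coral and have no replicate check.

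C2, C4 and C6 changed in the most similar way. Across all rows tested, the log2 changes of C2 and C6 correlated with r = 0.42, those of C4 and C6 with 0.27 and those of C2 and C4 with 0.22. The median over the 15 pairs of corals was 0.04, and C3 and C6 had the lowest value, -0.22. Among the 6379 rows of the highest quartile, where counting error is smaller, the same 3 pairs had 0.47, 0.37 and 0.39, and C3 with C6 had -0.38. The highest correlation of C1 with another coral over all rows was 0.04. Each coral's change set against the mean of the other 5 gave r of 0.28 in C4, 0.24 in C2, 0.17 in C6, 0.04 in C5, -0.04 in C1 and -0.04 in C3. Rows are not independent replicates, and the values of 1 coral share both of its libraries.

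**Figure D2:**
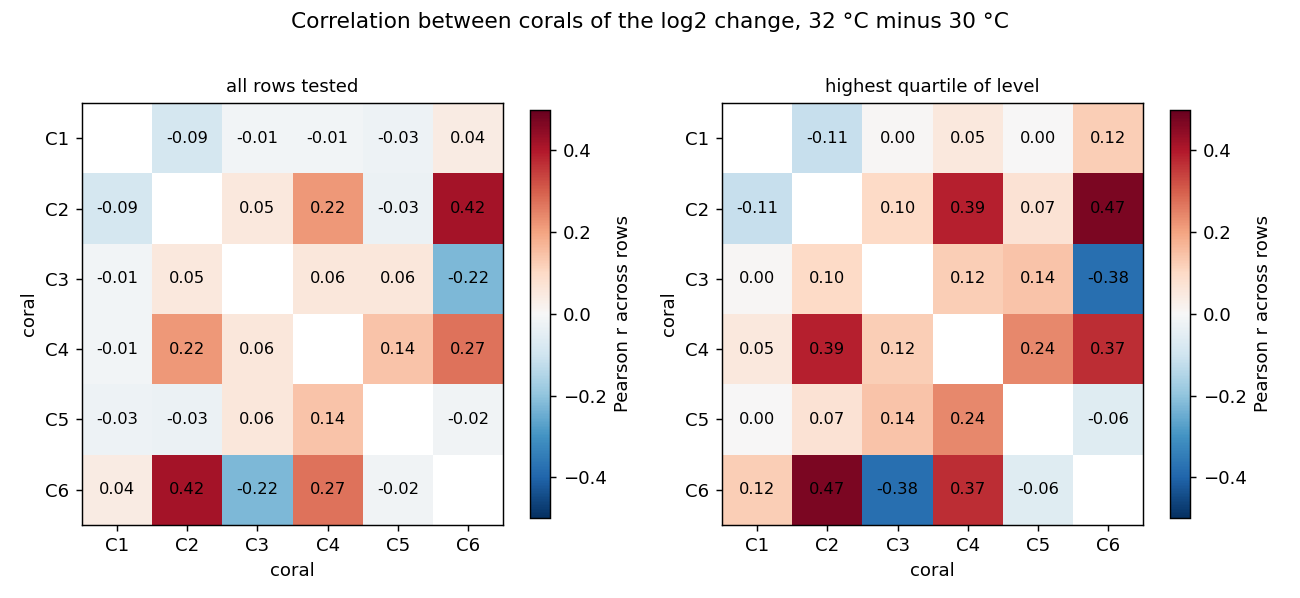
Pearson correlation across host rows of the log2 change from 30 to 32 °C between each pair of corals, over all 25516 rows tested (left) and the 6379 rows of highest CPM (right). C2, C4 and C6 form the block of highest values, up to 0.42 and 0.47, and C3 with C6 has the lowest, -0.22 and -0.38.

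The other 3 combinations of origin and site give heat responses that share no library with these 12. The first is the same offshore-origin corals at an inshore site (5 pairs, since no column matched the label of C3 at 32 °C). The column that matched no label is headed as a control and was not used. The others are inshore-origin corals at the offshore site (8 pairs) and inshore-origin corals at the inshore site (8 pairs). The 8 inshore-origin corals carry 6 genotype labels, with 3 corals (A3, A5 and A6) of genotype In1, so their pairs are not all independent genotypes, and the SEs, tallies and tests below count each coral as a pair. In each of these combinations too, library numbers under 17 belong to control fragments only, so library number is partly tied to temperature. The 4 rows that fell had smaller log2 changes in these combinations. OFAVBQ_DN217826_c12_g1 had -0.47 ± 0.194, -0.40 ± 0.154 and -0.59 ± 0.157 (SE) in the 3 combinations in that order, and was lower at 32 °C in 5 of 5, 7 of 8 and 7 of 8 pairs. OFAVBQ_DN203101_c1_g1 had -0.31 ± 0.318, -0.74 ± 0.253 and -0.89 ± 0.260, and was lower in 4 of 5, 7 of 8 and 7 of 8 pairs. Both therefore had the same sign throughout, without passing the threshold elsewhere (edgeR adjusted p of 0.106 or more).

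OFAVBQ_DN203011_c0_g1 had log2 changes of -0.20 ± 0.311, -0.22 ± 0.246 and -0.34 ± 0.259 (SE), and was lower in 4 of 5, 7 of 8 and 5 of 8 pairs. OFAVBQ_DN207486_c7_g1 had -0.03 ± 0.354, -0.21 ± 0.276 and 0.03 ± 0.275, and was lower in 3 of 5, 6 of 8 and 4 of 8 pairs, so its direction was not shared. Of the rows higher at 32 °C here, OFAVBQ_DN214703_c0_g1 had 0.05 ± 0.174, 0.18 ± 0.138 and 0.07 ± 0.138, and was higher in 4 of 5, 8 of 8 and 5 of 8 pairs. OFAVBQ_DN210328_c1_g2 had 0.11 ± 0.226, 0.67 ± 0.182 and 0.14 ± 0.183, and was higher in 5 of 5, 8 of 8 and 7 of 8 pairs. Its largest change outside the 12 libraries was thus at the same transplant site.

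The difference between heat responses was itself tested, and no row passed in edgeR with the low-count filter. Offshore-origin corals at the offshore site differed from the same corals at the inshore site in 0 of 35128 rows (edgeR; 868 had an unadjusted p under 0.05; DESeq2 also gave 0). The fit had a block per coral and site, so the heat changes of a coral were not paired across sites. Against inshore-origin corals at the offshore site the count was 0 in edgeR (1313 had an unadjusted p under 0.05; DESeq2 gave 0). Against inshore-origin corals kept at the inshore site it was also 0 in edgeR (2074 had an unadjusted p under 0.05; DESeq2 gave 0). Set against the mean of these 3 combinations, 0 rows passed in edgeR (1527 at an unadjusted p under 0.05) and 2 in DESeq2, both higher. For the 6 named rows the difference from that mean was -0.78 ± 0.203, -1.43 ± 0.339, -0.92 ± 0.327 and -0.98 ± 0.362 for the rows that fell and 0.93 ± 0.183 and 0.95 ± 0.241 for the others (log2, SE). Their edgeR adjusted p was 0.261 or more. The larger changes of these rows at the offshore site are those of rows selected there. In edgeR with the low-count filter, no row is shown to respond to heat in these corals alone.

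**Figure D3:**
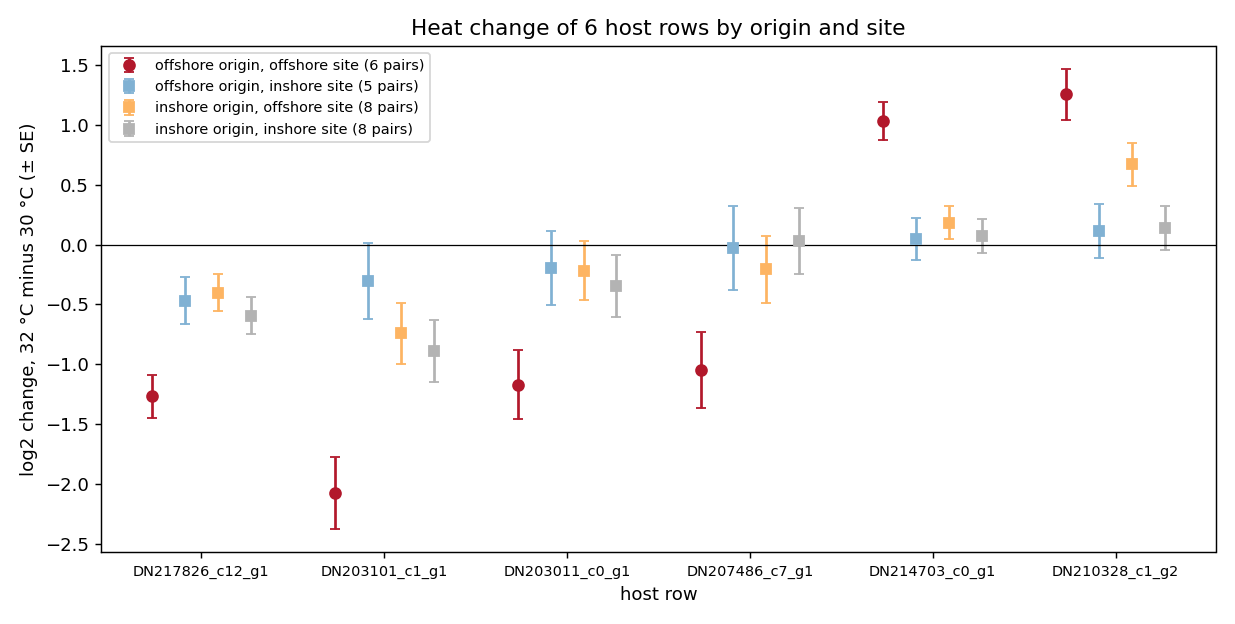
Log2 change (32 °C minus 30 °C, ± SE, from the fit over 27 coral pairs) of 6 host rows in offshore-origin corals, offshore site (6 pairs, circles) and in the other 3 combinations of origin and site (squares). The circles lie between -2.08 and 1.25 and farthest from 0 for each row (the rows were selected on them), and the squares lie between -0.89 and 0.67.

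Most of the rows with the smallest p had the same direction in the other combinations. By log2 change, all 4 that passed kept their sign in the same corals at the inshore site. All 4 also did in inshore-origin corals at the offshore site. In inshore-origin corals kept at the inshore site, 3 of the 4 did. For OFAVBQ_DN207486_c7_g1 the changes, -0.03 ± 0.354, -0.21 ± 0.276 and 0.03 ± 0.275 in that order, were smaller than their SE. The 100 rows higher at 32 °C with the smallest p had a median log2 change of 0.95 here, and 91 of them were higher in 6 of 6 corals. Of these 100, 86% were higher at 32 °C in the same corals at the inshore site, 91% in inshore-origin corals at the offshore site and 92% in inshore-origin corals kept at the inshore site. Over all rows higher here the shares were 57.8%, 59.6% and 54.4%. Median log2 changes of the 100 rows were 0.20, 0.40 and 0.38 in these combinations.

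The 100 rows lower at 32 °C with the smallest p had a median log2 change of -1.06, and 85 were lower in 6 of 6 corals. Their direction was shared by 88%, 85% and 90% in the 3 combinations in the same order, against 60.4%, 61.9% and 57.1% of all rows lower here, with medians of -0.27, -0.27 and -0.34. Both lists were picked by their p in the 12 libraries, a choice that by itself makes their changes larger here than in other libraries. The inshore-site libraries of offshore-origin corals come from the same animals. Library numbers under 17 belong to control fragments only, here and in the other combinations, so library number is partly tied to temperature throughout. Whether library number adds to the shared directions of both lists was not tested. Rows of one list can also be parts of one transcript: 19 of the 100 higher rows and 26 of the 100 lower rows had another tested row of their assembly component. Of these neighbours 20 of 23 (87.0%) and 29 of 35 (82.9%) had the same sign, against 65.3% and 62.5% for all rows of each direction.

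**Figure D4:**
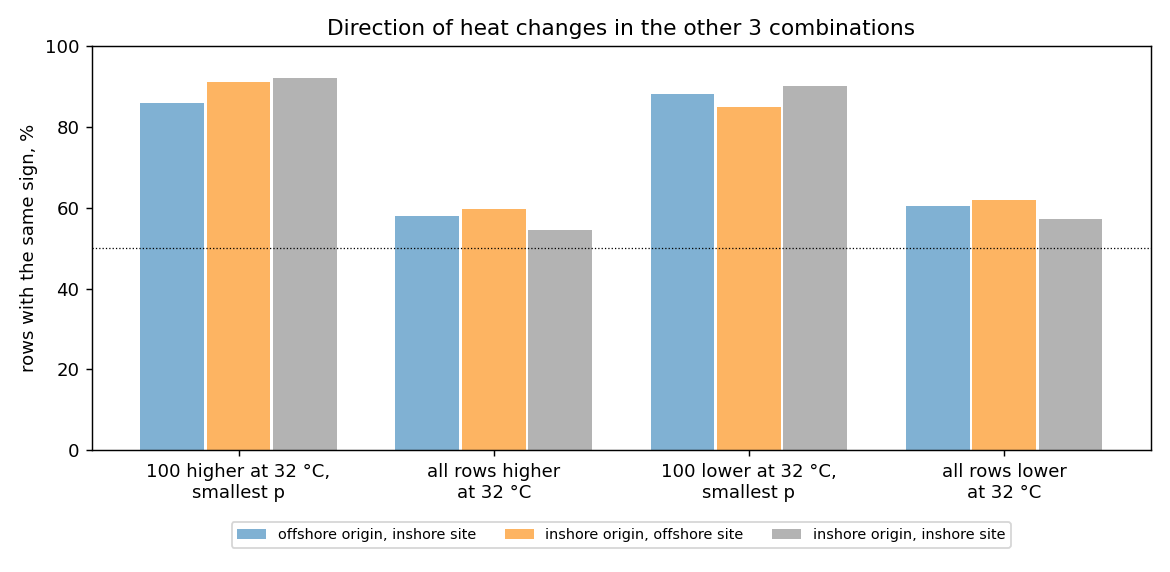
Share of host rows (%) whose heat change had the same sign in each of the other 3 combinations of origin and site, for the 100 rows with the smallest p in each direction and for all rows of that direction among the offshore-origin corals of the offshore site. Bars of the 100-row lists lie between 85% and 92% and those of all rows between 54.4% and 61.9%, and the dotted line marks equal shares of both signs.

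The D. trenchii share of the counts was low in all 12 libraries and did not shift one way with heat. It covers that table alone, and algae of other genera were not analysed here. The share was 0.0916, 0.0643, 2.22, 0.291, 0.356 and 0.0510% at 32 °C in C1 to C6, and 0.164, 0.0792, 0.158, 0.184, 0.130 and 0.0824% at 30 °C. C3, C4 and C5 had the higher share at 32 °C and C1, C2 and C6 the lower, and the highest, in C3 at 32 °C (Wilson 95% interval 2.21 to 2.23%), stood far above the other 11. The mean was 0.513 ± 0.847% at 32 °C and 0.133 ± 0.0440% at 30 °C (SD, n = 6 each), and without C3 the 32 °C mean was 0.171 ± 0.142% (SD, n = 5).

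The ratio of symbiont to host counts, on the log2 scale, differed by 0.69 ± 1.77 (SD, n = 6) between 32 and 30 °C, and was higher in 3 of 6 corals (two-sided exact sign-flip test, p = 0.5; the smallest p that 6 corals allow is 0.0312). The ratio was 14.3-fold higher in C3, 2.74-fold higher in C5 and 1.58-fold higher in C4. It was 1.79-fold lower in C1, 1.62-fold lower in C6 and 1.23-fold lower in C2. Without C3 the mean change was 0.06 (exact sign-flip p = 1, 5 corals). Without the 10 symbiont rows with most counts it was 0.92 (exact sign-flip p = 0.344).

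The symbiont counts also differed between corals in how many rows they covered. In C3, C4 and C5 at 32 °C, 25512, 7529 and 8174 of the 52359 rows held a count, against 2004, 2819 and 1755 at 30 °C. In C1, C2 and C6 the numbers were 684, 622 and 494 at 32 °C and 440, 671 and 369 at 30 °C. To compare libraries of different depth, the number of rows expected in 2863 counts, the lowest total once each row is rounded to a whole count, was computed. It was 2434, 1954 and 1938 in C3, C4 and C5 at 32 °C, against 1069, 1069 and 900 at 30 °C. In C1, C2 and C6 it was 511, 520 and 494 at 32 °C and 289, 482 and 300 at 30 °C. The expected number was thus higher at 32 °C in 6 of 6 corals, a pattern seen after the values were computed and given without a test.

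In the libraries that covered few rows, a small set of rows held a large part of the counts. The 10 most abundant symbiont rows of each library made up 50.1, 51.99 and 48.1% of symbiont counts in C1, C2 and C6 at 32 °C, against 51.1, 48.5 and 45.98% at 30 °C. In C3, C4 and C5 they made up 3.18, 14.3 and 14.8% at 32 °C, against 36.3, 35.4 and 36.8% at 30 °C. The 3 corals with a higher D. trenchii share at 32 °C were therefore also those in which the top rows took the smaller part. Whether the counts at the lowest shares come from algae of this species was not tested.

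**Figure D5:**
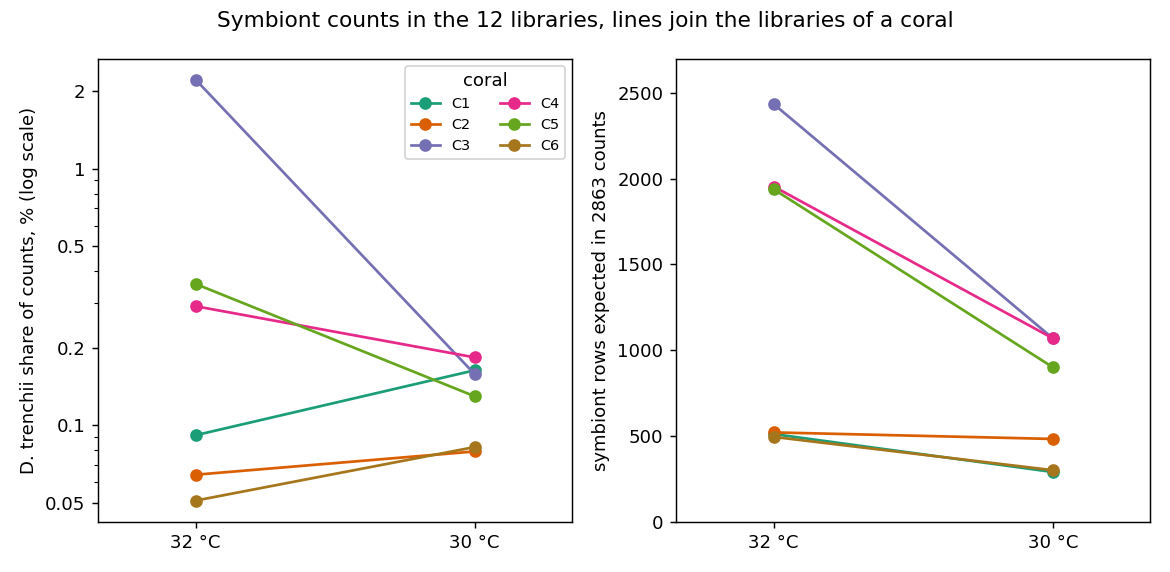
D. trenchii share of counts in % (left panel, log axis) and number of symbiont rows expected in 2863 counts (right panel) at 32 °C and 30 °C, with a line for each of the corals C1 to C6. C3 at 32 °C has the highest share, 2.22%, and C3, C4 and C5 lie above C1, C2 and C6 in expected rows at both temperatures.

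Only 59 symbiont rows had enough counts for the paired test, and 1 of them (1.69%) fell at 32 °C (edgeR; 17 at an unadjusted p under 0.05, 10 higher and 7 lower). Whether the counts of these 59 rows come from algae of this species was not tested. Dtrenchii_DN306731_c0_g1 had 49, 29, 69, 89, 125 and 30 counts at 32 °C in C1 to C6, and 208, 110, 101, 187, 199 and 123 at 30 °C. It was lower at 32 °C in each coral. The counts, which also follow depth, overlapped between the groups. As a percentage of all symbiont counts the row ran from 0.0495 to 1.14% at 32 °C and from 1.68 to 3.18% at 30 °C. That percentage also falls where other symbiont rows gain counts. In C3 the symbiont total was 139512 at 32 °C and 6001 at 30 °C, while the row had 69 and 101 counts. Relative to the 59 rows its log2 change was -0.77 ± 0.119 SE (edgeR adjusted p = 0.0138). Scaled to the host total of its library as a CPM, it averaged 12.5 ± 7.80 CPM at 32 °C and 33.1 ± 12.5 CPM at 30 °C (SD, n = 6 each). Without C1, C2 or C3 the log2 change was -0.73, -0.68 and -0.67 and missed the threshold (edgeR adjusted p = 0.0706, 0.0858 and 0.0536), and over all its alternatives the adjusted p ran from 0.00507 (DESeq2) to 0.876 (edgeR, no low-count filter).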

How the data were processed

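Total RNA from a column kit went into stranded mRNA libraries, per the labels' protocols. The submitters' processing notes list Trimmomatic 0.36 and RSEM, whereas the deposited tables carry kallisto in their names, so which program made the counts is unclear. No assembly or version of either is given in the sources used here. The authors deposited estimated counts per transcript row, without normalization, for a host table (87440 rows) and a D. trenchii table (52359 rows). Of the values, 74.7% and 99.3% were whole (within 1e-06), and all were rounded before count tests. Of the 56 columns 1 matched no label and was not used, which leaves 55 libraries and 27 coral pairs.

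The 12 libraries were fitted alone in edgeR 4.0.16 (R 4.3.3): TMM, filterByExpr by temperature with a minimum count of 10, coral as a block, quasi-likelihood F test, adjusted p under 0.05. A further edgeR fit over the 27 pairs, with a block per coral and site, tested differences between combinations. CPM uses TMM-adjusted totals of the tested rows. The 2 fragments that form a pair come from 1 animal, and their deviations from the group means correlated with r of 0.424 to 0.742. Libraries of the same temperature all differed by more than sampling noise (chi-square per degree of freedom 13.4 or more). Wilson 95% intervals cover counting error only. Level quartiles were taken over all 12 libraries in place of the 30 °C libraries alone.

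Identifiers named are the 2 higher and 2 lower rows with the smallest p among those with adjusted p under 0.05, mean log2 CPM of at least 1 and the same direction in 6 of 6 corals, plus those said to be chosen after their values were seen. The comparison and lists were chosen with earlier results of these data known. The tests were tried on simulated data. Alternatives were RLE factors, DESeq2 1.42.0, no low-count filter, no replicate block, the spread of all pairs, library numbers of 17 or more, libraries that stand apart left out, other prior counts (the main one is 2) and each coral left out.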

Additional observations from a re-analysis of the deposited data

Results flagged for a closer look

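The D. trenchii share of counts in C3 at 32 °C, 2.22%, lay far from the other 5 corals at that temperature, with a gap of 0.860 of the group's range to the next. In the 30 °C fragments, the 247 CPM of OFAVBQ_DN217826_c12_g1 in C1 lay 0.695 of the range above the next coral. Both exceed Dixon's 95% critical value for 6 samples. In all 19 groups of 6 values were checked, and chance alone marks about 1 in 20. The causes were not tested.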

How the results depend on the processing

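The count of 4 host rows moved with the setting: DESeq2 gave 154, no low-count filter 798 (of 76711 rows; 641 of them pass the filter), the fit with no replicate block 2, library numbers of 17 or more 0, the spread of all pairs 31 (11 higher, 20 lower), and leaving out a coral 0 to 3. RLE factors gave 4. DESeq2 gave no adjusted p for 8905 rows. Against the mean of the other 3 combinations, DESeq2 called 2 rows and no low-count filter 1, and with no filter each of the other 3 differences also gave 1, in place of 0. The remaining alternatives for these differences, leaving out each coral and the fit with no replicate block included, gave 0. The causes were not tested.

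The 4 rows that fell and the 2 higher rows kept their sign in all 12 distinct alternatives, and without a coral the log2 changes of the 4 ranged from -2.22 to -1.005. With no replicate block OFAVBQ_DN203011_c0_g1 and OFAVBQ_DN207486_c7_g1 did not pass (edgeR adjusted p = 0.162 and 0.9998). The symbiont test called 0 rows with no filter (259 at an unadjusted p under 0.05), 5 with no replicate block, 3 with DESeq2 and 0 to 14 without a coral, the 14 without C5. The change of the symbiont ratio ranged from 0.06 without C3 to 0.99 without C1, and none of its alternatives passed. The host fit has 5 residual degrees of freedom, and symbiont totals ran from 2865 to 139512 counts per library.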
